A study of Mus musculus with 6 samples.

Results

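Transcripts of 44 genes that copy the genome or divide the cell were followed in C2C12 cells, an established mouse myoblast line, cultured in growth medium, in low serum and in low serum with added exosomes. The members were named by symbol and matched to the rows of the deposited table of 20950 entries. All 44 were found, 20 of them replication genes (from Mcm2 to E2f1) and 24 of them mitosis genes (from Mki67 to Mad2l1). The values are FPKM, that is fragments per kilobase of transcript, scaled to the mapped fragments of the library, so that levels can be compared between genes per length. Exosomes are membrane vesicles released by cells, and here they were isolated from fetal bovine serum (FBS).

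A dividing cell licenses its origins with the MCM helicase in G1, copies its DNA in S phase and then builds a spindle to separate the chromosomes in mitosis. Replication genes are classically switched on by E2F factors at the passage from G1 to S, whereas most mitosis genes peak later, in G2 and M, through CHR and CCAAT elements bound by the DREAM, MuvB and NF-Y complexes. Myoblasts leave the cell cycle when serum is withdrawn and fuse into myotubes, and both programs are known to be repressed in that exit.

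The 6 libraries came from 5 conditions, and all the cells were the same line in DMEM. Growing cells were in 10% FBS (1 library). Cells moved to differentiation medium near confluence received horse serum (2% HS, 1 library), the same medium with exosomes (2% HS + exosome, 1 library), FBS at a lower share (0.2% FBS, 1 library) or that medium with exosomes (0.2% FBS + exosome, 2 libraries). By the study's methods, exosomes were added at about the number that 10% FBS contains. The labels give no time of harvest, and they do not say whether the 2 replicates came from separate cultures. Only 0.2% FBS + exosome was replicated, so the p-values of the fit with 1 mean per condition rest on the spread between those 2 libraries, shared across genes by limma, and the other conditions are assumed to vary alike. The fits named below that take both media together also use differences between other libraries. Each library summed to between 461439 and 515215 FPKM. From the steps of low FPKM values the depth was estimated at 33250000 to 39450000 reads. No member fell under 59 estimated reads in any library. The reads of a member were estimated with its longest coding transcript and an assumed fragment length of 200 bases, and they depend on that choice. Of 4 myoblast markers, Myod1 lay between 83.7 and 110 FPKM in every library, but Pax7 averaged under 1 FPKM and was not tested. Myf5 changed by -0.93 in low serum and by 0.96 with exosomes in 0.2% FBS, on the log2(FPKM + 1) scale. In low serum 2 of the 4 were lower and 2 higher (61.0% of all genes tested were lower). With exosomes in 0.2% FBS the split was the same (34.9% of all genes were lower). The myotube markers were already high in 10% FBS (8 genes summing to 8057 FPKM).

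The promoters of the members carried the letters of these elements unevenly between the classes. RefSeq promoters (GRCm38.p6, the same assembly as the mm10 build of the deposited values) from 250 bases before to 50 after the start were matched for 37 of the 44 members, 17 replication and 20 mitosis genes. The words searched on both strands were TTTCGCGC, TTTGGCGC and TTTCCCGC for E2F, TTTGAA for CHR, and CCAAT. E2F words on opposite strands can overlap each other, as in Mcm6, and were then counted once per gene.

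An E2F word was found in 7 of 17 replication genes (41.2%), in 1 of 20 mitosis genes (Cdk1) and in 2.12% of the 27025 genes with a promoter. The following 30-base windows show this word in capitals in the promoters of 3 licensing genes. Mcm6 and Mcm5 encode subunits of the MCM helicase, and Cdt1 loads it. The windows are given in that order. These windows lie at chr1:128359797-128359826 on the minus strand (Mcm6), chr8:75109345-75109374 on the plus strand (Mcm5) and chr8:122568035-122568064 on the plus strand (Cdt1).
Mcm6: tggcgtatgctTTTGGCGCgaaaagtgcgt
Mcm5: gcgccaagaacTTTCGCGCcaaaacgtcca
Cdt1: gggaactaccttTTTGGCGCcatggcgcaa

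The CHR word showed the opposite distribution. It was in 14 of 20 mitosis genes (70.0%), in 3 of 17 replication genes (17.6%) and in 20.2% of all genes. The windows below, with TTTGAA in capitals, are from mitosis genes whose levels are described later: Mki67 at chr7:135716460-135716489 (minus strand), Cdk1 at chr10:69352910-69352939 (minus), Plk1 at chr7:122159453-122159482 (plus), Cdc20 at chr4:118437344-118437373 (minus), Kif23 at chr9:61946780-61946809 (minus) and Prc1 at chr7:80294434-80294463 (plus).
Mki67: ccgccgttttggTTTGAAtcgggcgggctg
Cdk1: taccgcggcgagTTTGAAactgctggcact
Plk1: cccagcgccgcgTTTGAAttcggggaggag
Cdc20: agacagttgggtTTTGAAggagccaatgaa
Kif23: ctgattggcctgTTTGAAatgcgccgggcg
Prc1: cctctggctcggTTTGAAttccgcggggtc

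CCAAT was the commonest of the words and separated the classes least. It was in 16 of 20 mitosis genes (80.0%), 10 of 17 replication genes (58.8%) and 41.1% of all genes. CHR and CCAAT together were in 13 of 20 mitosis genes (65.0%), in 2 of 17 replication genes (Mcm2 and Cdc45) and in 8.97% of all genes. In the mitosis genes the centre of a CHR match lay at a median of -7.5 bases from the start and that of a CCAAT match at -65.0 bases. The promoter of Rrm2, the member with the largest change on adding exosomes, is shown with its CCAAT in capitals (chr12:24708192-24708221, plus strand), and none of the E2F or CHR words searched was in that window of 300 bases.
Rrm2: ggtcagcggcgtCCAATgggaggcgaggcc

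**Figure D1:**
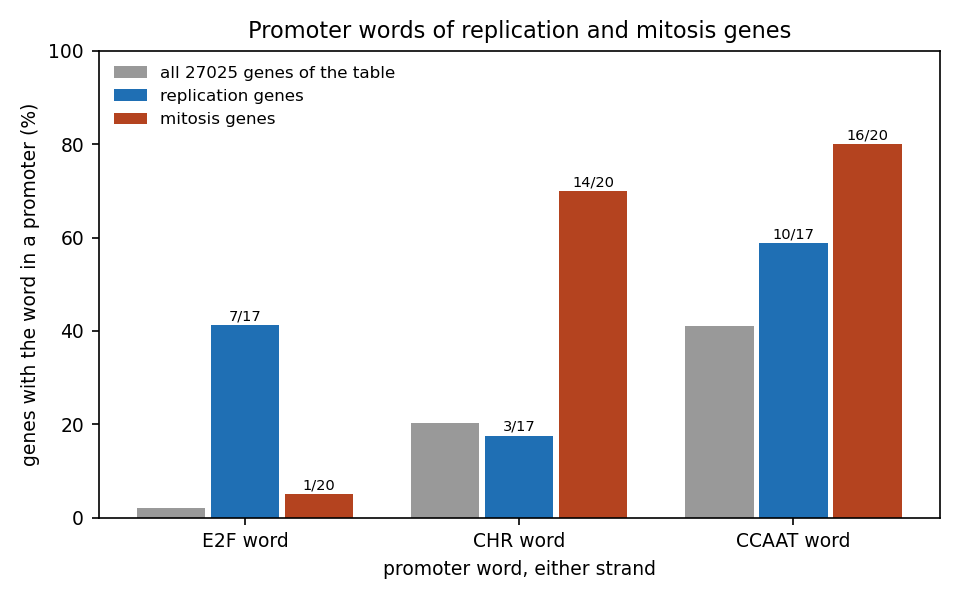
Share of genes (vertical axis, %) whose RefSeq promoter holds an E2F, CHR or CCAAT word on either strand, for all 27025 genes of the table (grey), 17 replication genes (blue) and 20 mitosis genes (red), with the number of genes above each bar of a class. The E2F word was commonest in replication genes (7 of 17) and the CHR word in mitosis genes (14 of 20); a match of letters is a description and not a test of binding.

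In growing cells the members spanned a wide range of levels. Pcna, the sliding clamp of the DNA polymerases, was the most abundant at 64.5 FPKM in 10% FBS, and Ccne2, a cyclin of the G1 to S passage, the least at 1.06 FPKM. The replication genes had a median level of 8.02 FPKM and the mitosis genes one of 7.3 FPKM, and no member was listed at 0 in any library. Cdc6, a licensing factor, and Ccne2 averaged under 1 FPKM and were left out of the tests, so 42 of the 44 members were tested among 10731 genes. There were 3 members that share over 10% of their 75-base stretches with annotated transcripts of other genes: Ccnb1 (35.2%), Pcna (23.7%) and Mcm7 (14.5%). Copies outside the annotation were not searched. Exons of 13 members overlap those of another gene (Mcm7, Tk1, Cdc45, Gins2, Fen1, Ccne2, Top2a, Ccna2, Plk1, Cdc20, Kif20a, Nusap1 and Prc1), and whether the FPKM calculation used strand is not given in the sources used here. The levels of both sets are therefore uncertain.

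The first comparison was between growing and differentiating cells. All 24 mitosis genes were lower in low serum, by a median of -0.53 on the log2(FPKM + 1) scale (mean of 2% HS and 0.2% FBS minus 10% FBS, 1 library each), with changes from -0.67 (Bub1) to -0.15 (Prc1). Of all genes tested, 61.0% were lower, and their median was -0.09. The replication genes moved less and not all in 1 direction, with a median of -0.11, 15 of 20 lower and a range from -0.31 (Gins2) to 0.80 (Rrm2). In bulk RNA, fewer dividing cells and less RNA per dividing cell cannot be told apart.

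No single member passed the adjusted threshold in this comparison. By limma with Benjamini-Hochberg adjustment, 0 of 42 members had an adjusted p under 0.05, against 1.99% of all genes, and the lowest adjusted p was 0.0566 (Rrm2). No member was beyond 1 in size either, against 1.94% of all genes. At an unadjusted p under 0.05 there were 20 mitosis genes, all lower, and 1 replication gene, Rrm2, which was higher. The same unadjusted rule took 13.9% of all genes as lower and 7.98% as higher.

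Among the mitotic cyclins and their kinase, the levels stepped down from 10% FBS to 2% HS to 0.2% FBS. Mki67, the classical proliferation antigen, was at 10.6 FPKM in 10% FBS, 8.13 in 2% HS, 5.78 in 2% HS + exosome, 5.58 in 0.2% FBS, and 5.04 and 5.1 in the replicates of 0.2% FBS + exosome. Ccnb1, the cyclin that takes cells into mitosis, was at 11.5, 9.88, 6.45, 5.58, 4.78 and 5.59 FPKM in the same order. Cdk1, its kinase, was at 13.5, 11.4, 7.79, 7.45, 7.21 and 7.55 FPKM. All 3 were highest in growing cells and second highest in 2% HS, and the other 4 libraries lay close together below. Ccna2, the cyclin of S phase and G2, had 13.8, 11.8, 8.61, 7.68, 6.56 and 6.62 FPKM, the same order of media.

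The spindle checkpoint, kinetochore and spindle genes were also all lower in low serum. Bub1, a checkpoint kinase, had the lowest change in low serum (-0.67, SE 0.18, limma adjusted p 0.0932), with 4.42 FPKM in 10% FBS, 3.41 in 2% HS, 2.14 in 2% HS + exosome, 1.64 in 0.2% FBS and 1.88 and 2.14 in 0.2% FBS + exosome. Ndc80, which holds microtubules at the kinetochore, was at 5.28, 4.47, 3.04, 2.06, 2.12 and 2.72 FPKM in that order. Cenpe, a kinetochore motor, was at 4.01, 2.91, 1.93, 1.71, 1.6 and 1.73 FPKM. The 3 kinetochore genes had a median change of -0.62 and the 8 mitotic kinase and checkpoint genes one of -0.50, a difference that was not tested. Kif11, the motor that separates the spindle poles, had 7.22, 5.31, 3.77, 3.43, 3.12 and 2.89 FPKM, and Birc5, a subunit of the chromosomal passenger complex, had 18.6, 14.2, 10.4, 9.51, 10.6 and 11.3 FPKM.

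The mitosis genes shared an order of libraries that was uncommon in the table. For all 24, the 10% FBS library was the highest and 2% HS the second highest. The 10% FBS library was the highest for 7 of 20 replication genes and 16.8% of all genes. Both 10% FBS and 2% HS were above the other 4 libraries in 4.48% of all genes and in 9 of 20 replication genes. The full order 10% FBS, 2% HS, 2% HS + exosome and then the 3 libraries of 0.2% FBS was kept by 18 of 24 mitosis genes, by 3 of 20 replication genes (Mcm5, Mcm6 and Pola1) and by 1.15% of all genes. These orders are of single libraries, except for 0.2% FBS + exosome, and were chosen after the values had been seen.

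Replication genes varied within and between roles, and no test of role was made. The 8 licensing genes had a median change of -0.14 in low serum, with Mcm6 at 17.9 FPKM in 10% FBS, 15.7 in 2% HS and 13.0 in 0.2% FBS, and Mcm2 at 8.7, 10.5 and 7.58 FPKM. Cdc45 and Gins2, which complete the active helicase, were both lower (-0.27 and -0.31). Of the genes at the fork, Pcna was at 64.5, 77.8 and 65.3 FPKM, and Fen1, which trims Okazaki fragments, at 8.56, 9.89 and 8.57 FPKM, while Pola1, the catalytic subunit of the priming polymerase, was at 3.5, 3.26 and 2.58 FPKM. Pcna and Fen1 thus had in 0.2% FBS the level of growing cells, whereas Pola1 was at 73.5% and Mki67 at 52.8% of the growing level there.

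The nucleotide supply genes went 2 ways. Rrm2 (chr12:24708241-24714146, plus strand), the regulated small subunit of ribonucleotide reductase, had 30.4 FPKM in 10% FBS, 56.8 in 2% HS and 50.5 in 0.2% FBS, which is 187% and 166% of the growing level. The change of Rrm2 was 0.80 (SE 0.17, 95% interval 0.41 to 1.19). Rrm1, the large subunit of the same enzyme, was at 23.8, 33.1 and 28.9 FPKM. Both subunits were thus higher in both differentiation media than in growing cells, although neither passed the adjusted threshold. Tyms, which makes thymidylate, was lower in both media with 5.62, 4.63 and 4.14 FPKM, and Tk1, the thymidine kinase, was at 13.2, 15.2 and 8.91 FPKM.

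The 2 differentiation media were not alike for these genes. This comparison was added after the values had been seen. All 44 members were lower in 0.2% FBS than in 2% HS, against 53.7% of all genes, with medians of -0.53 for mitosis and -0.25 for replication genes. In 2% HS the mitosis median against 10% FBS was -0.23 and the replication median 0.07, and 10 of 20 replication genes but 0 of 24 mitosis genes had their highest level there, as had 10.9% of all genes. In 0.2% FBS the medians were -0.79 and -0.28. Bub1 and Ndc80 (-1.04 each) were the members beyond -1 in 0.2% FBS, a size that 0.690% of all genes passed. With a pseudocount of 0.1 FPKM 7 members were beyond 1 in size (4.24% of all genes), and after scaling 0 were (2.64%). Between the 2 media, limma gave 0 of 42 members and 0 of all genes at an adjusted p under 0.05, and 24 members, all lower in 0.2% FBS, at an unadjusted p under 0.05, which 2.32% of all genes passed in that direction.

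**Figure D2:**
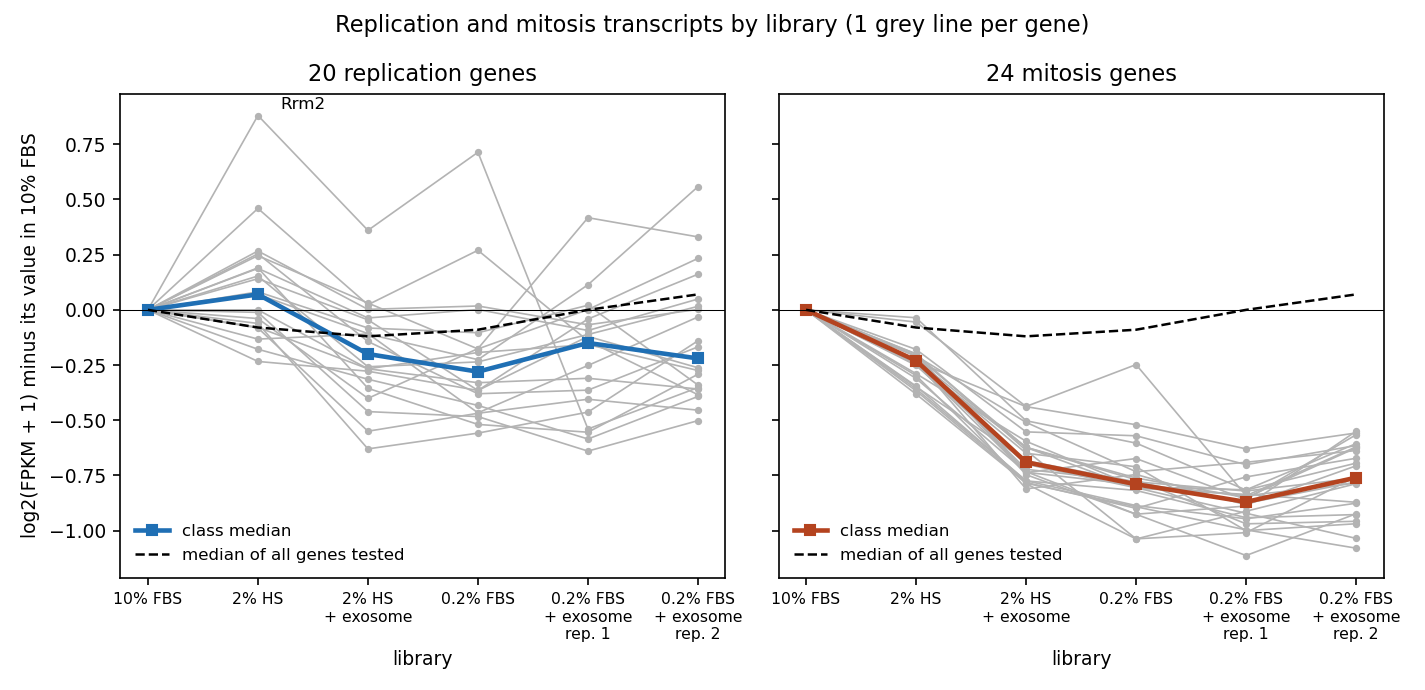
Change of each member (grey lines, left 20 replication genes, right 24 mitosis genes) as log2(FPKM + 1) minus its value in the 10% FBS library, by library; thick lines are class medians and the dashed line is the median of all genes tested. The mitosis median went from 0 in 10% FBS to -0.23 in 2% HS and to between -0.87 and -0.69 in the other 4 libraries, and the replication median stayed between -0.28 and 0.07. Lines join values of a gene and mark no time course.

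The main comparison of the study was the addition of exosomes to 0.2% FBS. Of the members, Rrm2 was the one that changed by the adjusted threshold: it fell from 50.5 FPKM in 0.2% FBS to 20.6 and 23.6 FPKM with exosomes. Its change was -1.16 (SE 0.17, 95% interval -1.55 to -0.77, limma adjusted p 0.009), -1.26 and -1.07 in the replicates. So 1 of 42 members passed, against 12.5% of all genes, and 1 of 44 was beyond 1 in size, against 4.04%. At an unadjusted p under 0.05 there were 6 members, against 31.5% of all genes. The call was lost without the filter on low values (adjusted p 0.243) and with values under 1 FPKM raised to 1 (adjusted p 0.134), settings in which limma called no gene of the table. It was also lost, with a smaller change of -0.89, in the fits of 1 exosome effect common to both media (adjusted p 0.573) and of that effect with the replicate block (adjusted p 1), which called no gene either.

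The level of Rrm2 with exosomes in 0.2% FBS was below every other library, growing cells included. Its partner Rrm1 was at 28.9 FPKM in 0.2% FBS and 21.5 and 18.0 with exosomes (change -0.53, SE 0.17, limma adjusted p 0.0784). The other 2 nucleotide genes had small changes, Tyms 0.17 and Tk1 0.10. Thus the 2 subunits of ribonucleotide reductase were the replication genes with the largest negative values.

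The 3 largest positive values of the replication genes were those of Cdt1, E2f1 and Ccne1. E2f1, the activator of replication genes, was at 5.57 FPKM in 0.2% FBS and 8.91 and 8.33 with exosomes (change 0.55, SE 0.16, limma adjusted p 0.0599). Cdt1, which loads the MCM helicase, was at 4.85 FPKM and then 6.4 and 9.07 (change 0.56, SE 0.21, adjusted p 0.111). Ccne1, the cyclin E that starts S phase, was at 2.02 FPKM and then 2.78 and 3.35 (change 0.42, SE 0.18, adjusted p 0.157). In these 3 genes both exosome replicates lay above the control library, and none passed the adjusted threshold. As 1 effect common to both media their changes were 0.16, 0.33 and 0.16 (E2f1, Cdt1 and Ccne1), and 0.12, 0.18 and 0.07 with the replicate block. In the same roles Ccne2 had a change of -0.05 and Mcm5 one of -0.09.

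Over all 10731 genes the exosome libraries of 0.2% FBS were shifted upwards by a median of 0.14, and the members are read against that shift. The replication genes had a median of 0.07 (11 of 20 higher, background 65.1%) and the mitosis genes one of -0.05 (16 of 24 lower, background 34.9%). By replicate the mitosis median was -0.10 (replicate 1) and 0.01 (replicate 2), so its direction was not the same in both. The replication median was 0.05 and 0.07. With each library scaled to the same 75th percentile, the shift of all genes was 0.01, the replication median was -0.06 (12 of 20 lower) and the mitosis median -0.16 (20 of 24 lower), where 5273 of the 10731 genes were lower. The direction of the replication median therefore depended on the scaling. In both replicates, 11 mitosis genes were lower and 5 higher than the control library, and 4 replication genes were lower and 10 higher, where 27.5% and 55.2% of all genes were. After scaling these were 18 and 2 mitosis genes and 9 and 7 replication genes, against 4375 and 4489 of all genes.

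Among mitosis genes, Prc1, which bundles microtubules of the spindle midzone, stood apart. It was at 12.3 FPKM in 10% FBS, 11.8 in 2% HS, 8.82 in 2% HS + exosome, 10.2 in 0.2% FBS and 6.42 and 6.72 in 0.2% FBS + exosome. Its change with exosomes in 0.2% FBS was -0.57 (SE 0.16, limma adjusted p 0.052). By limma it passed after scaling to the 75th percentile (adjusted p 0.031) and with a pseudocount of 0.1 FPKM (0.0459). It did not pass without a trend (0.0754), with values under 1 FPKM raised to 1 (0.141) or with no filter (0.243). As 1 effect common to both media its change was -0.49 (adjusted p 0.705). By the mean of both media it was the mitosis gene least changed by low serum alone. In 2% HS alone Kif20a (-0.04) changed less than Prc1 (-0.05). Prc1 overlaps exons of Rccd1 on the opposite strand. Nusap1, a microtubule binding protein of the spindle, followed at -0.27 (2.91 FPKM, then 2.2 and 2.27), and Ccna2 at -0.19. The positive end held Plk1, a mitotic kinase, at 0.21 (3.27 FPKM, then 3.38 and 4.54), and Birc5 and Bub1 at 0.19 each. As 1 effect common to both media Plk1 turned to -0.11 and Birc5 to -0.07, and with the replicate block to -0.24 and -0.13.

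**Figure D3:**
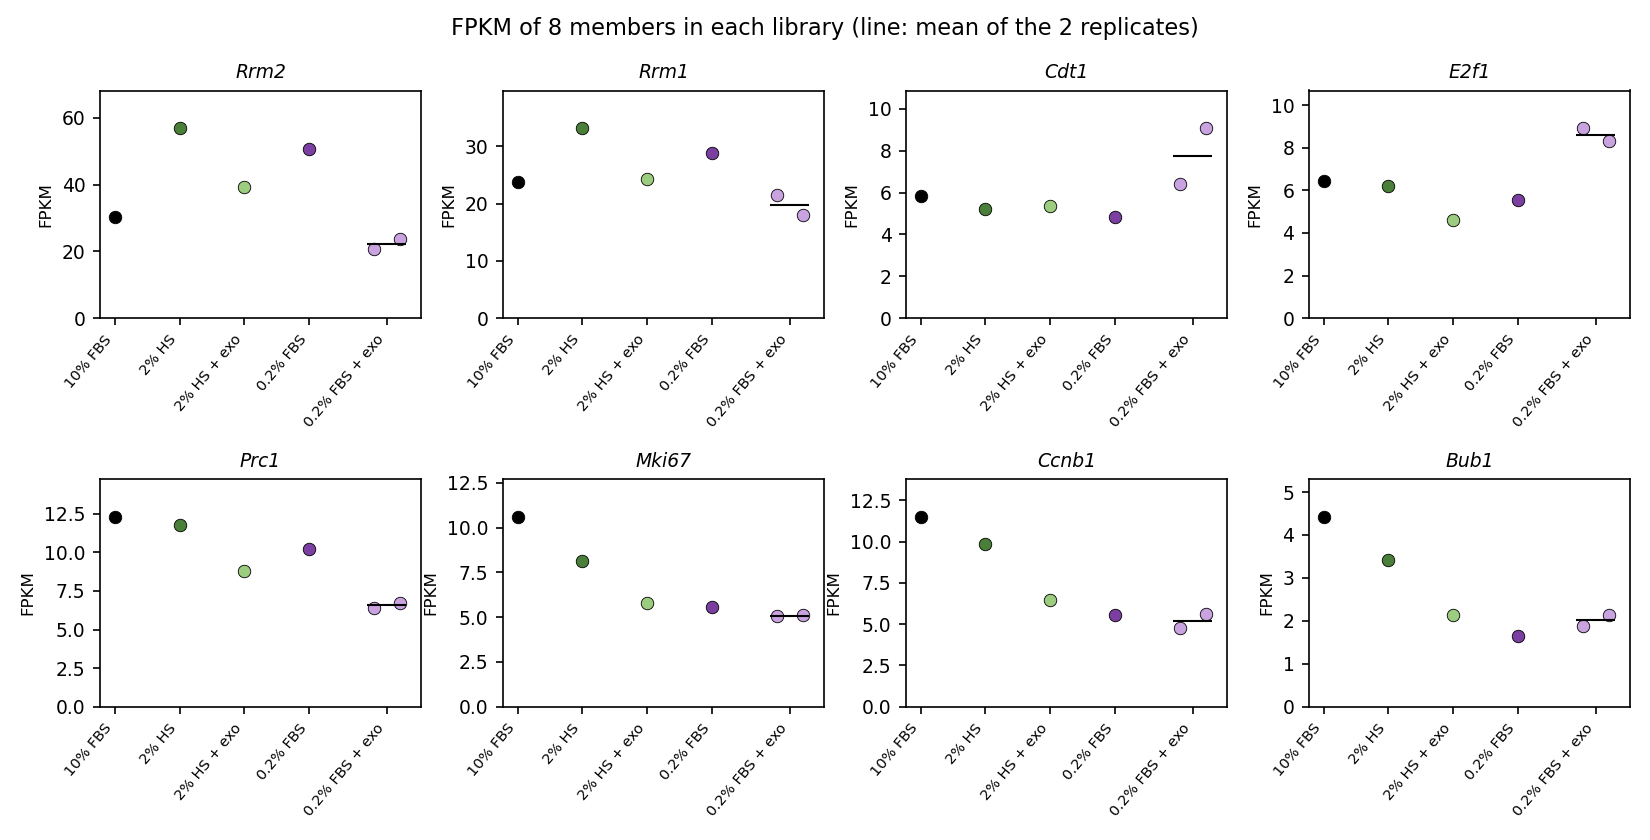
FPKM (vertical axes, each from 0) of 8 members in each of the 6 libraries, 1 point per library, with a line at the mean of the 2 replicates of 0.2% FBS + exosome (exo: exosome). Rrm2 and Rrm1 were highest in 2% HS and 0.2% FBS and lowest in 0.2% FBS + exosome, E2f1 and Cdt1 were highest in 0.2% FBS + exosome, and Mki67, Ccnb1 and Bub1 were highest in 10% FBS and next in 2% HS.

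In 2% HS the mitosis genes were all lower with exosomes. The comparison was of 1 library with 1 and has no replicate check. The mitosis median was -0.42, from -0.58 (Kif23, a cytokinesis motor) to -0.21 (Ttk, a checkpoint kinase), and 24 of 24 were lower against 58.7% of all genes. The replication median was -0.27 with 19 of 20 lower, and Cdt1 was the exception at 0.02. No member passed an adjusted p under 0.05 by limma (0.0839% of all genes did) or was beyond 1 in size (0.652%), whereas 15 members, all lower, had an unadjusted p under 0.05, which 2.74% of all genes had in that direction.

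Members with an unadjusted p under 0.05 in 2% HS included Kif23 (4.17 to 2.46 FPKM), Ccnb1 (9.88 to 6.45), Plk1 (6.01 to 3.88), Cdk1 (11.4 to 7.79) and Cdc20, an activator of the anaphase promoting complex (14.6 to 10.1). Of the replication genes, Gins2 (5.42 to 3.33 FPKM, change -0.57), Tk1 (15.2 to 10.1), Rrm2 (56.8 to 39.3), Cdc45 (5.68 to 3.83) and Mcm5 (7.78 to 5.43) had one. With exosomes the mitosis median of the 2% HS library against 10% FBS was -0.69, near the -0.79 of 0.2% FBS without exosomes.

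The difference between the media was tested directly as the change with exosomes in 0.2% FBS minus that in 2% HS. It was positive in 41 of 44 members, with a median of 0.38, against 67.1% and 0.18 over all genes. E2f1 had the largest difference (0.91, SE 0.25, 95% interval 0.34 to 1.48, limma adjusted p 0.107), followed by Gins2 (0.82, adjusted p 0.186) and Plk1 (0.73, adjusted p 0.236). Rrm2 (-0.64), Prc1 (-0.18) and Rrm1 (-0.09) were the members with a negative difference. None of the 42 members passed the adjusted threshold, which 1.16% of all genes did, and 8 had an unadjusted p under 0.05, 7 of them positive, against 19.5% of all genes. A difference between the media is thus not shown for any single member.

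**Figure D4:**
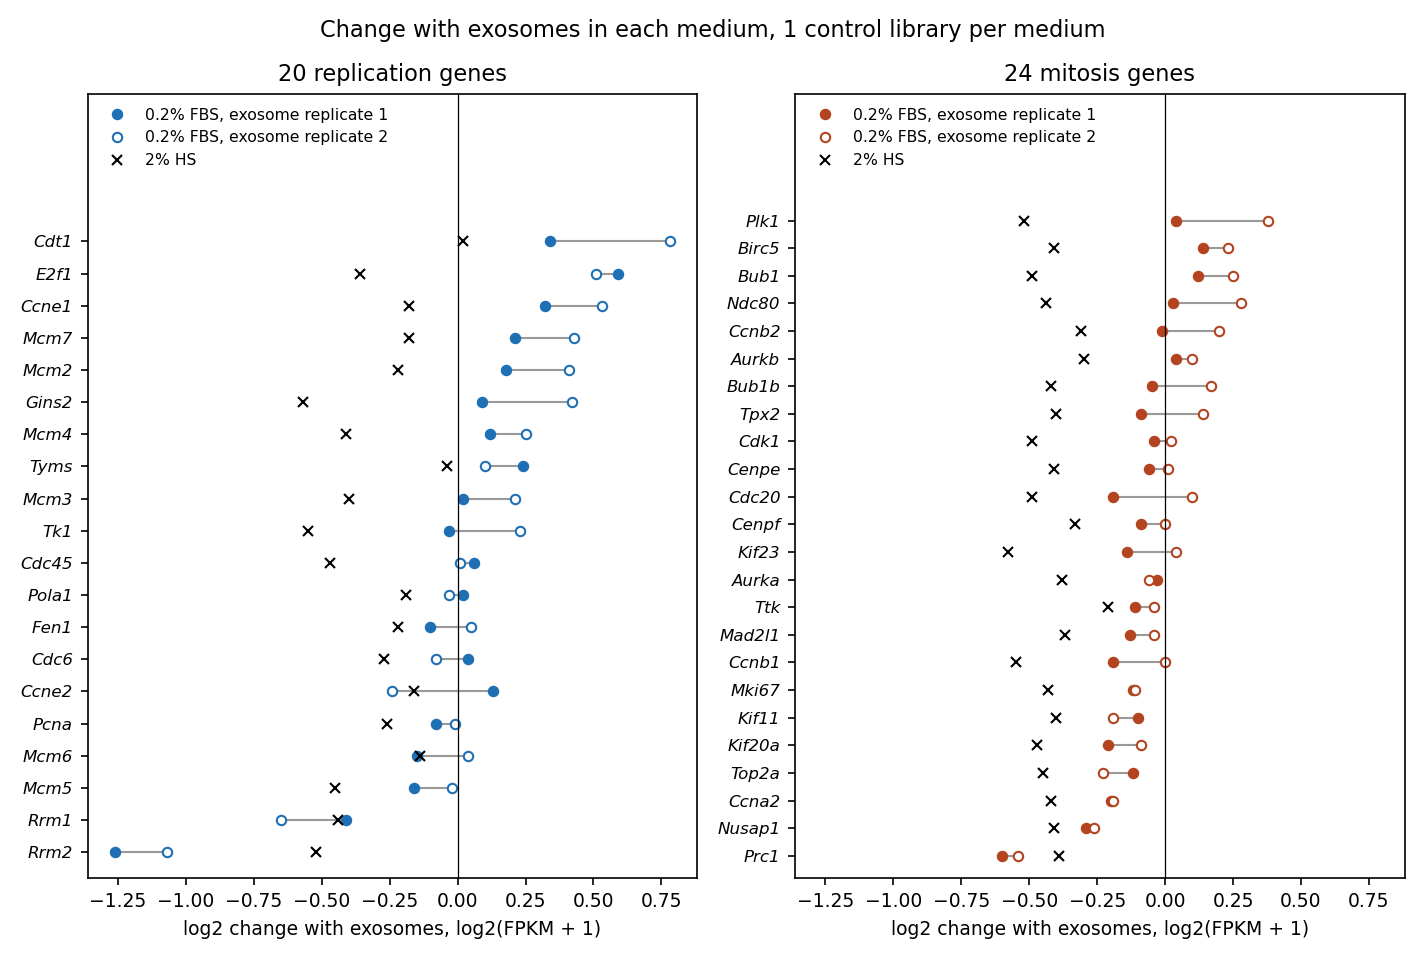
Change with exosomes (horizontal axis, difference of log2(FPKM + 1)) for each of 20 replication genes (left) and 24 mitosis genes (right), ordered by the mean change in 0.2% FBS: filled and open circles are the 2 exosome replicates against the single 0.2% FBS library, and crosses are the single pair of libraries in 2% HS. All mitosis crosses lie left of 0, whereas the circles scatter around 0 except for Prc1 and, less so, Nusap1; Rrm2 lies at -1.26 and -1.07.

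Cells in 0.2% FBS + exosome were also set against growing cells. Every mitosis gene was lower in both replicates, as were 3325 of the 10731 genes tested. For the mean of the replicates the mitosis median was -0.80, with a range from -1.04 (Kif11) to -0.59 (Ttk). By that mean 43.6% of all genes were lower, and the median of all genes was 0.04. The replication median was -0.20, from -0.57 (Mcm5) to 0.37 (E2f1). Among the 44 members every mitosis gene thus lay below every replication gene, with Ttk at -0.59 and Mcm5 at -0.57 as the nearest pair. Without replicate 2 the order of this pair turned (Ttk -0.63, Mcm5 -0.64), and 23 of 24 mitosis genes lay below all replication genes. Wider lists of the same pathways, described below, overlapped in this comparison. Of 66 other mitosis genes 61 were lower, with a median of -0.63 and a highest change of 0.36. Of 56 other replication genes 48 were lower, with a median of -0.20 and a lowest change of -0.64.

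By limma 0 of 42 members had an adjusted p under 0.05 in that comparison (0.0652% of all genes), and the lowest adjusted p was 0.111. At an unadjusted p under 0.05 there were 30 members, all 24 mitosis genes among them, against 11.5% of all genes. Kif11 (-1.04, SE 0.17) and Ccnb1 (-1.02, SE 0.17) were beyond 1 in size, as were 0.606% of all genes. With a pseudocount of 0.1 FPKM 11 members were (1.34% of all genes), with values under 1 FPKM raised to 1 there were 12 (1.32%), and after scaling to the 75th percentile 5 (0.54%). E2f1 was at 6.42 FPKM in growing cells, below both its exosome values in 0.2% FBS.

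Summed over the class, mitosis transcripts were 220 FPKM in 10% FBS, 183 in 2% HS, 130 in 2% HS + exosome, 121 in 0.2% FBS and 110 and 119 in 0.2% FBS + exosome. Replication transcripts summed to 248, 302, 235, 243, 211 and 227 FPKM in the same order. The mitosis sum in every differentiation library was thus below that of growing cells, and the replication sum was highest in 2% HS. Much of the replication sum lay in Rrm2, Pcna and Rrm1, which together were at 119 FPKM in 10% FBS, 168 in 2% HS and 145 in 0.2% FBS. The other 17 replication genes summed to 130, 134 and 98.4 FPKM in these libraries.

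Markers of myotubes were set beside the mitosis genes. The summed level of the 8 myotube markers was 8057 FPKM in 10% FBS, 17619 in 2% HS, 16969 in 2% HS + exosome, 19221 in 0.2% FBS and 7628 and 5582 in 0.2% FBS + exosome. All 8 were lower with exosomes in 0.2% FBS (median -1.42; 34.9% of all genes were lower), and 3 of 8 passed an adjusted p under 0.05 by limma (12.5% of all genes), but their median in 2% HS was -0.03. Myotube transcripts in 0.2% FBS + exosome were thus near or below the level of growing cells. The mitosis median against 0.2% FBS was -0.05, or -0.16 after scaling to the 75th percentile, and -0.10 and 0.01 in replicates 1 and 2. Of 5 leukocyte markers, Cd68 went from 1.19 FPKM in 10% FBS to 1.63 in 0.2% FBS and 1.95 and 2.0 with exosomes there, Lyz2 lay between 0.813 and 1.46 FPKM, and Ptprc, Emr1 and Cd3e did not exceed 0.0219 FPKM. The leukocyte list summed to between 2.07 and 3.41 FPKM over the libraries, and the endothelial list summed to at most 0.284 FPKM. The part of cell composition in these values was not tested.

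Wider lists of the same pathways were described in the same way. Of 66 other mitosis genes, 64 were lower in low serum (median -0.38), where 61.0% of all genes were. Of the 63 tested, 31 had an unadjusted p under 0.05 by limma, all lower, against 13.9% of all genes in that direction. The adjusted threshold was passed by 1 of 63 tested, near the 1.99% of all genes. This was Ube2c, an enzyme of the anaphase promoting complex pathway, which fell by 0.90 on the log2 scale (limma adjusted p 0.0426; 25.2 FPKM in 10% FBS, 16.6 in 2% HS, 10.3 in 0.2% FBS). The call of Ube2c was lost in limma without a trend (adjusted p 0.0731), with both control libraries as 1 group (0.114), with values under 1 FPKM raised to 1 (0.256) and with no filter (0.345). Cenpa, the centromeric histone, had a change of -0.85 (adjusted p 0.0546), and Cdca3 one of -0.70. Of 56 other replication genes, 51 were lower (median -0.20) and 0 of 51 tested passed by limma, with 8 at an unadjusted p under 0.05, all lower, near the 13.9% of all genes.

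With exosomes in 0.2% FBS, the other mitosis genes had a median of 0.01 and the other replication genes one of 0.13. By limma's adjusted threshold 3 genes rose, 1 of 51 tested replication genes and 2 of 63 tested mitosis genes, a smaller share than the 8.20% of all genes that were called higher. Gins3, a subunit of the same GINS complex as Gins2, went from 2.25 to 5.07 and 5.66 FPKM (change 0.97, adjusted p 0.0164), and the test of its change in 0.2% FBS against that in 2% HS gave an adjusted p of 0.0342, a test that called no gene of the table with values under 1 FPKM raised to 1 or with no filter. Wee1, an inhibitory kinase of Cdk1, went from 4.15 to 7.37 and 6.91 FPKM (0.66, adjusted p 0.0375), and Cks1b, a Cdk subunit, from 20.1 to 29.6 and 32.1 FPKM (0.59, adjusted p 0.0492). After scaling to the 75th percentile Wee1 (adjusted p 0.072) and Cks1b (0.0864) no longer passed, whereas Gins3 did (0.0255). Without a trend Wee1 (0.053) and Cks1b (0.0722) were lost too. None of the 3 passed with the floor (from 0.134), with no filter (0.243), or as an effect common to both media, where Gins3 had a change of 0.27 (adjusted p 0.807) and, with the replicate block, of 0.12. In 2% HS, 63 of 66 other mitosis genes and 49 of 56 other replication genes were lower with exosomes (58.7% of all genes), with medians of -0.32 and -0.22.

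Genes of cell cycle exit and histones were set beside them. With exosomes in 0.2% FBS, 13 of 23 genes of cell cycle exit were higher and 8 lower, against 65.1% and 34.9% of all genes. Their median was 0.06, with a range from -1.47 to 0.83. Of the 21 tested, 2 passed the adjusted threshold there, both lower, a share near the 12.5% of all genes. At an unadjusted p under 0.05 by limma 5 were higher and 4 lower, against 22.5% and 8.98% of all genes. Cdkn1c, the Cdk inhibitor p57, fell with exosomes in 0.2% FBS from 2.94 to 0.582 and 0.277 FPKM (change -1.47, limma adjusted p 0.00863, or -2.59 with a pseudocount of 0.1 FPKM), and in 2% HS it was at 1.24 and 2.53 FPKM without and with exosomes. For Cdkn1c the same test between the 2 media gave an adjusted p of 0.0288, a call likewise lost with that floor and with no filter. Rb1, the retinoblastoma repressor of E2F factors, fell from 36.6 to 23.0 and 22.9 FPKM (-0.65, limma adjusted p 0.036), a call lost without a trend (0.0533). Neither Rb1 nor Cdkn1c passed with the floor (0.134 each), with no filter (0.243 each), or as an effect common to both media, with changes of -0.37 and -0.56 (and of -0.32 and -0.33 with the replicate block). Cdkn1a, the Cdk inhibitor p21, was at 536 FPKM in 10% FBS, 1001 in 2% HS, 1009 in 0.2% FBS and 486 and 444 in 0.2% FBS + exosome (change with exosomes -1.12, adjusted p 0.0686). Among 10 histone genes, 5 were lower and 5 higher in low serum (61.0% of all genes were lower), and 1 of 8 tested passed (1.99% of all genes). Hist1h2bc rose from 25.0 FPKM in 10% FBS to 60.2 in 2% HS and 53.5 in 0.2% FBS (1.15, limma adjusted p 0.0284). This call was lost without a trend (0.0641), with both control libraries as 1 group (0.0619), with the floor (0.256) and with no filter (0.345).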

How the data were processed

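The 6 RNA libraries covered 5 culture conditions of C2C12 cells. The authors trimmed reads with cutadapt 1.9.1, mapped them to mm10 with TopHat2 2.1.0 (versions from the submitters' processing notes) and computed the deposited FPKM values with Cufflinks; the annotation and strand setting are not given in the sources used here. FPKM is scaled by depth and length, so counts were not used and depth was estimated from low values of 2420 genes with 1 transcript (77.0 to 80.3% of them within 0.1 of a whole read).

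Members, gene lists and promoter words were chosen with earlier results of these data known. Values were compared as log2(FPKM + 1), which understates changes of low genes, in the 10731 genes that averaged 1 FPKM or more. limma 3.58.1 (R 4.3.3) with a mean-variance trend was fitted to all 6 libraries with 1 mean per condition, which leaves 1 residual degree of freedom, and p-values were adjusted over all genes tested by Benjamini-Hochberg. The fold threshold was a log2 change beyond 1 in size, after the study's methods. Medians of a class cover all its members, tested or not. The contrasts share libraries, so their values are not independent. The fit was tested on simulated data.

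Genes named with values were, per class, the 5 largest changes in low serum, the 5 largest with exosomes in 0.2% FBS that agreed in sign in both replicates, members past a threshold and Mki67, Pcna, Ccnb1, Cdk1 and Mcm2; of the other lists, up to 3 genes per contrast. Others were chosen after their values were seen. Gene positions are from GENCODE on GRCm38. Alternatives were another pseudocount, a floor of 1 FPKM, scaling to the 75th percentile, no filter, single media, 1 common exosome effect, a replicate block, no trend and leaving out each exosome replicate. RT-qPCR and reads were not analysed here.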

Additional observations from a re-analysis of the deposited data

How the results depend on the processing

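The median change of the 44 members held its direction in every setting run for low serum, exosomes in 2% HS, 0.2% FBS + exosome against 10% FBS and the difference between media. With exosomes in 0.2% FBS it did not, and was -0.02, -0.12 after scaling to the 75th percentile, 0.03 without replicate 1, -0.04 without replicate 2 and -0.15 as 1 effect common to both media. With a replicate block from the sample titles in that common effect it was -0.22. Members past an adjusted p under 0.05 there were 1, but 2 (Rrm2 and Prc1) with a pseudocount of 0.1 FPKM or after scaling (13.6% and 10.8% of all genes), and 0 with values under 1 FPKM raised to 1, with no filter, with the common effect and with the replicate block, where limma called no gene of the table; the cause was not tested. The common effect turned Plk1 to -0.11 and Birc5 to -0.07, and the block to -0.24 and -0.13. Both fits average in the change of 2% HS by construction, and in the block replicate 2, which shares its number with no control, does not contribute.

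For low serum the median was -0.35, and -0.41 with the floor, -0.29 after scaling, -0.19 in 2% HS alone and -0.56 in 0.2% FBS alone; scaling gave 1 adjusted call of 42 (Rrm2) in place of 0, near the 1.58% of all genes, 0.2% FBS alone 2 members beyond 1 in size (2.48% of all genes), and the floor a gap between replication and mitosis medians of 0.47 in place of 0.42. In 2% HS the gap was 0.24 with the floor in place of 0.15. Against 10% FBS the median in 0.2% FBS + exosome was -0.66, and -0.76 with a pseudocount of 0.1, -0.77 with the floor, -0.72 after scaling and -0.56 and -0.70 without replicates 1 and 2. Members beyond 1 in size there were 2, and 11, 12 and 5 with the first 3 of these settings (1.34%, 1.32% and 0.54% of all genes), and the gap of 0.60 became 0.66 and 0.77 with the first 2, and 0.54 and 0.72 without replicates 1 and 2. The difference between media had a median of 0.38, 0.46 with a pseudocount of 0.1, 0.24 after scaling and 0.43 and 0.31 without replicates 1 and 2. No paired analysis was possible for the other comparisons. In 2% HS the libraries without and with exosomes share a title number but form a single pair. No title number is shared between the media or with 10% FBS. Whether the numbers mark shared cultures could not be checked. The fewest estimated reads of a member were 59 (Ccne2). Every comparison involves a control condition with 1 library, which limits it.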
